A study of Homo sapiens with 18 samples.

Results

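The genes described here encode the stress sensors of the endoplasmic reticulum, the transcription factor XBP1 that one of the sensors activates, and the proteases that process another. They were chosen by symbol as EIF2AK3, ERN1, ATF6, ATF6B, XBP1, MBTPS1 and MBTPS2. All 7 have a row among the 37096 named genes of the deposited table. Of these, 6 passed the filter on low values, as did 17755 genes in all, and ATF6B did not.

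The cells were wild-type HEK293T, an established human embryonic kidney line, and the libraries were made from poly-A RNA. The 18 libraries form 6 groups of 3. They were transfected with pLEX, an empty vector, or with a construct labelled MethionaseNLS. Methionase is an enzyme that breaks down methionine, and NLS stands for a nuclear localisation signal. At 12 h after transfection both were sampled in DMSO, the vehicle, and at 24 h both were sampled in DMSO or in Vps34-IN1. This inhibitor of Vps34, the class 3 phosphatidylinositol 3-kinase, was given at 5 µM for 12 h. The labels name no catalytically dead methionase, so the activity of the enzyme and the expression of a transfected protein cannot be told apart here. They do not say how many cells took up the construct, how long each DMSO group was exposed, or whether replicates came from separate cultures. The p-values therefore measure only the spread between these libraries, which may be technical. RNA came from whole cultures, in which fewer cells of a kind and less RNA per cell cannot be told apart.

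The endoplasmic reticulum folds secreted and membrane proteins, and unfolded proteins there set off the unfolded protein response through membrane-bound sensors. PERK (encoded by EIF2AK3) is a kinase that phosphorylates eIF2alpha and lowers translation. IRE1alpha (ERN1) is a kinase and endoribonuclease that cuts XBP1 mRNA so that its spliced form encodes an active transcription factor. ATF6 and its relative ATF6B travel to the Golgi, where the site-1 protease (MBTPS1) and the site-2 protease (MBTPS2) release their transcription factor domains. The chaperone BiP (HSPA5) binds the sensors at rest and is a classic target of the response.

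Libraries held between 18278586 and 20825232 reads, with size factors from 0.892 to 1.098. All 8 markers of the HEK293T line were above the filter. Of the 8 markers of other cell types, 5 had a value and 3 passed the filter. These were COL1A1 at 402.5 to 671.6, CD68 at 59.17 to 106.2 and GFAP at 28.68 to 57.36 normalised reads. ALB and PECAM1 lay under the filter, with a lowest value of 0 for each. The summed level of these markers was 612.4 to 635.2 normalised reads in vector cells at 12 h and 549.6 to 824.5 over the 24 h groups. The mean share of reads on the 2 mitochondrial rRNA genes was 0.24% in vector cells and 0.355% in methionase cells at 12 h. At 24 h it was 0.548% and 1.489% in DMSO and 1.202% and 2.177% under Vps34-IN1. It moved with the groups, and its part in the results below was not tested.

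The promoters of 3 members are shown because their mRNAs were higher with Vps34-IN1 in vector cells. Among the windows searched for the 7 members, only that of XBP1 holds the element through which ATF6 is known to act. Sequences are RefSeq windows of the 250 bases before each gene start on GRCh38.p14, each cut to the stretch that no annotated UTR or coding exon covers. Capitals mark the endoplasmic reticulum stress element (ERSE) in XBP1 and CCAAT boxes, on either strand, in EIF2AK3. The ATF6 stretch holds neither. ERN1 was also higher, but its window lies wholly in an annotated UTR and is not shown. XBP1 has 2 windows in the table, and the one at its gene start was used. All 3 are written 5′ to 3′ on the strand of the gene.
XBP1 (chr22:28800598-28800819, minus strand): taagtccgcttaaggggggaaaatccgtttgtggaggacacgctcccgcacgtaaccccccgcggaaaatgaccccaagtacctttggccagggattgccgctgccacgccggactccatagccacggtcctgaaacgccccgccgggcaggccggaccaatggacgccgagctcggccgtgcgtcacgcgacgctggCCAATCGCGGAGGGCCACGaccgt
EIF2AK3 (chr2:88627577-88627714, minus strand): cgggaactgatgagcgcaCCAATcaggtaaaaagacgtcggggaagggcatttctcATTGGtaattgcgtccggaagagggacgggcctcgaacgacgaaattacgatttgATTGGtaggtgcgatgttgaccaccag
ATF6 (chr1:161766070-161766293, plus strand): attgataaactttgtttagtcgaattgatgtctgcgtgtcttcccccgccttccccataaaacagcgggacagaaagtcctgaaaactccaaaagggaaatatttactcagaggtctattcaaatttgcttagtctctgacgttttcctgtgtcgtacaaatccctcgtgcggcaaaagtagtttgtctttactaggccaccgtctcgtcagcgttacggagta

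The ERSE, searched on both strands as CCAAT and CCACG with 9 bases of any kind between them, was found in 26 of 35116 windows of that length, or 0.074%. The XBP1 match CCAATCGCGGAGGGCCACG lay at bases -52 to -34 from the start. HSPA5 carried the match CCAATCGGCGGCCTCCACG at bases -66 to -48. No other member's window held the motif. The ERN1 window lies within the annotated gene, so the bases before the annotated start of ERN1 were not searched. Its first 5 letters, CCAAT alone, were in 32.0% of windows, and EIF2AK3 held 4 such matches in its whole window, XBP1 2, ERN1 1 and ATF6B 1. The unfolded protein response element, TGACGTGG, was in 0.612% of windows and in none of the 7. A match is a description of letters and not evidence of a bound factor.

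With Vps34-IN1 at 24 h, vector cells had more mRNA for all 3 sensors above the filter and for XBP1, and in methionase cells these genes were not called. Of the 6 members tested, 4 were called higher and 1 lower with the drug in vector cells, where 20.2% of all tested genes were called higher and 19.9% lower, or 40.1% in either direction. Called means a Benjamini-Hochberg adjusted p below 0.05 in limma, over all tested genes of that comparison. In methionase cells 0 of 6 were called with the drug, against 7.93% of all tested genes (2.95% higher and 4.98% lower), and 0 had an unadjusted p under 0.05 or were called by limma voom on recovered reads. The difference between both drug responses was itself called for EIF2AK3, ERN1, ATF6 and XBP1, always lower in methionase cells. These are 4 of 6 members, where 11.9% of tested genes were called lower, 9.92% higher and 21.8% in either direction. The median log2 difference of the 6 members was 0.63 with the drug in vector cells and -0.07 in methionase cells, and that of all tested genes was 0 in each.

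With methionase at 24 h, the sensors called in DMSO went in different directions, and all 3 sensors above the filter were lower under Vps34-IN1. In DMSO, EIF2AK3, MBTPS1 and MBTPS2 were called lower and ERN1 higher, which is 3 of 6 members where 21.1% of tested genes were lower and 1 where 18.1% were higher. In either direction, 39.2% of tested genes were called. Under Vps34-IN1, 5 of the 6 were called lower and 0 higher, against 22.2% and 17.3% of tested genes, or 39.5% in either direction. The median of the 6 was -0.2 in DMSO and -0.64 under the drug, beside 0.01 for all tested genes in both. At 12 h, 0 of 6 members were called, where 2.17% of tested genes were. ERN1 alone had an unadjusted p under 0.05 there, and limma voom called 0. Between 12 h and 24 h in vector cells 0 of 6 were called, against 11.5% of tested genes, with XBP1 alone under an unadjusted p of 0.05 and 0 called by limma voom. These comparisons share libraries: the vector cells at 24 h in DMSO are the control of several, and the vector cells under Vps34-IN1 enter both the drug response and the methionase difference under the drug.

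**Figure D1:**
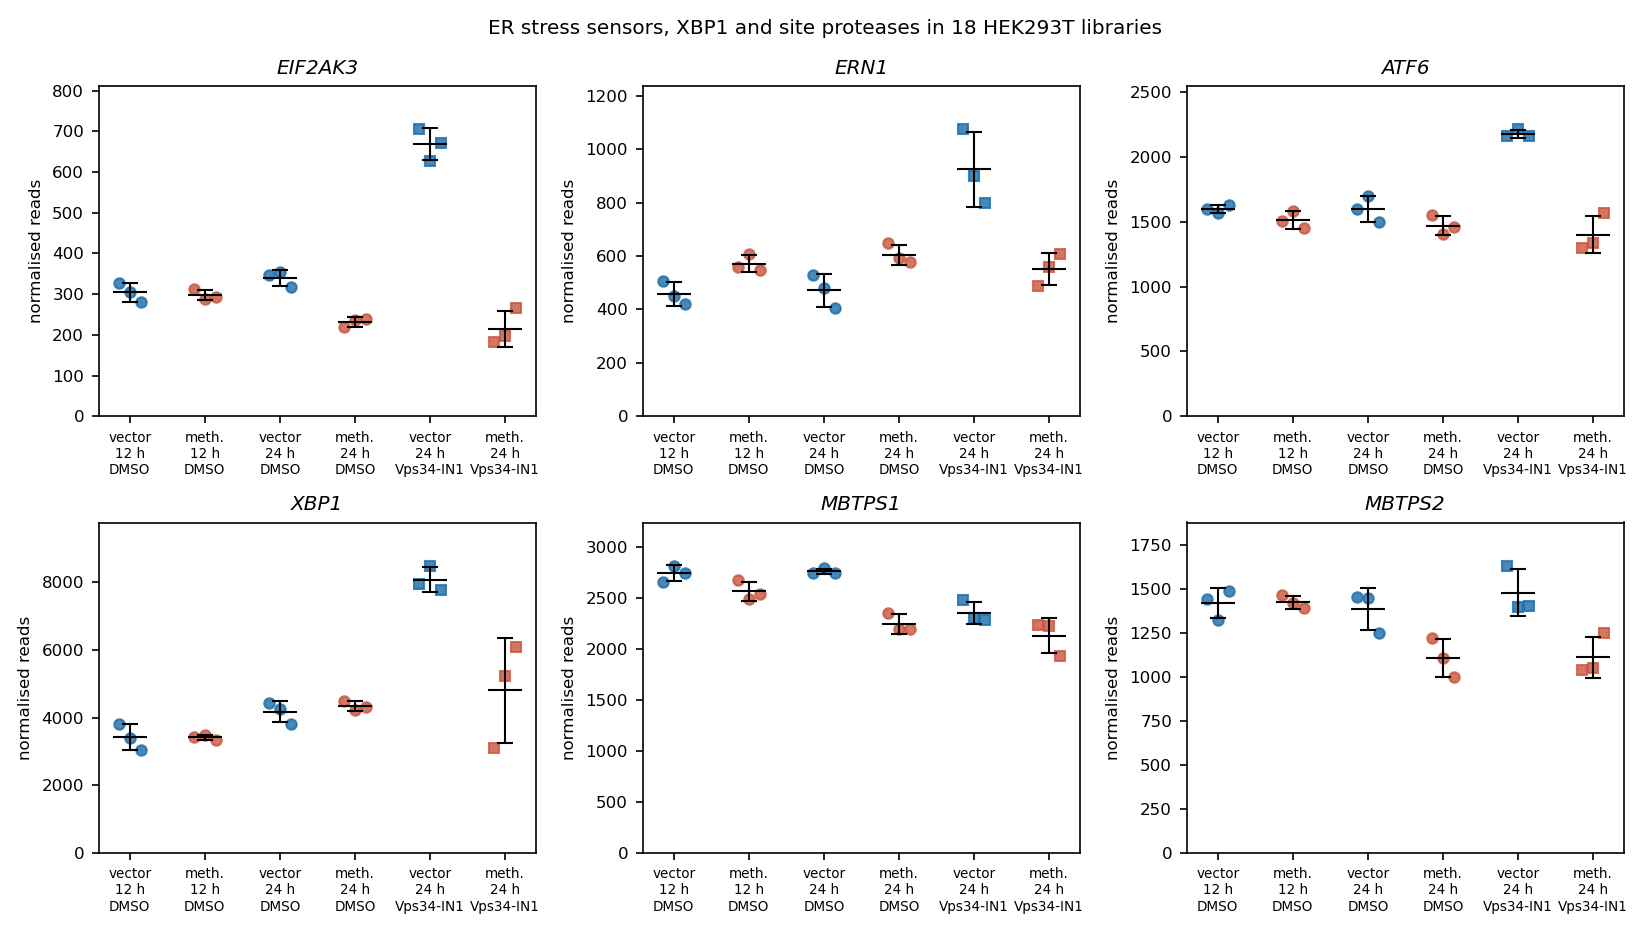
Normalised reads (linear axis from 0) of the 6 members above the filter in each of 18 libraries, by group. Points are libraries, horizontal bars are group means and error bars are SD (n = 3). Vector cells under Vps34-IN1 stand highest for EIF2AK3, ERN1, ATF6 and XBP1, with no overlap with any other group.

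EIF2AK3, on chromosome 2 (88556741 to 88627576, minus strand, ENSG00000172071), had the widest contrast between the groups under the drug. Vector cells in Vps34-IN1 held 705.8, 627.2 and 672.7 normalised reads, and methionase cells in the drug 182.7, 198.0 and 265.6. The lowest of the first group was above the highest of the second by a wide gap, and the mean in methionase cells was 0.3222 of that in vector cells. On the deposited log2 scale this is a difference of -1.36 ± 0.09 (SE), with a limma adjusted p of 1.219e-10. That scale levels off at low counts, so it understates the ratio of reads. In DMSO at 24 h, vector cells held 346.9, 354.3 and 318.4 and methionase cells 218.2, 237.1 and 239.6. These groups did not overlap either, and EIF2AK3 fell by 0.43 ± 0.09 on the log2 scale (adjusted p = 0.000299), or to 0.6815 of the vector mean. At 12 h the values were 327.4, 306.2 and 280.2 in vector cells and 313.0, 288.5 and 293.3 in methionase cells, which overlapped. The spans of genes on the opposite strand overlap that of EIF2AK3, AC104134.1 over 18870 bases, and overlap of exons was not examined. The libraries mark strand, but the strand setting of the counting is not given in the sources used here.

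The drug response of EIF2AK3 differed between vector and methionase cells. In vector cells the mean with Vps34-IN1 was 1.967 times that in DMSO, a log2 difference of 0.83 ± 0.09 (adjusted p = 6.662e-08). In methionase cells the ratio was 0.93, with overlapping groups and a log2 difference of -0.09 ± 0.09 (95% interval -0.27 to 0.09). Their difference was -0.92 ± 0.12 (adjusted p = 9.95e-06). The methionase difference also changed with time, by -0.41 ± 0.12 between 12 h and 24 h in DMSO (adjusted p = 0.02902). EIF2AK3 was the 1 member of 6 called in that comparison, where 6.33% of tested genes were called lower and 11.7% in either direction. MBTPS1 (-0.197 ± 0.085) and MBTPS2 (-0.308 ± 0.114) also had an unadjusted p under 0.05 there. After quantile normalization MBTPS1 was called (limma adjusted p = 0.03937) and EIF2AK3 was not (0.05406). With only the groups compared, MBTPS2 was called as well (0.04079). The EIF2AK3 call was lost under 9 of 19 alternatives, with adjusted p from 0.0077 to 0.07932. Leaving out any of 6 single libraries ended it: vector replicates 2 and 3 or methionase replicate 1 at 12 h, and vector replicates 1 and 2 or methionase replicate 1 at 24 h in DMSO.

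ERN1, on chromosome 17 (64039142 to 64130819, minus strand, ENSG00000178607), was the only member called higher with methionase in DMSO. At 24 h vector cells held 528.1, 478.9 and 407.0 normalised reads and methionase cells 647.0, 591.2 and 576.7. The groups did not overlap, and ERN1 rose by 0.32 ± 0.10 on the log2 scale (limma adjusted p = 0.01016). Without vector replicate 3, the lowest of its group, the difference was 0.23 (adjusted p = 0.07845) and no longer called. At 12 h the values were 505.9, 451.7 and 418.5 against 560.0, 606.9 and 548.2. These did not overlap, but the log2 difference of 0.28 ± 0.10 was not called (adjusted p = 0.123).

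Under Vps34-IN1 the order of the ERN1 values was the reverse. Vector cells held 1075.6, 898.9 and 798.1 normalised reads and methionase cells 488.3, 559.9 and 608.5. Every vector library was above every methionase library, a log2 difference of -0.66 ± 0.10 (adjusted p = 7.879e-06). Within vector cells the drug mean was 1.961 times the DMSO mean (log2 0.86 ± 0.10, adjusted p = 1.731e-07). Within methionase cells the ratio was 0.9128 (log2 -0.12, 95% interval -0.31 to 0.08), and the groups overlapped. The difference of these responses, -0.98 ± 0.13 (adjusted p = 1.636e-05), was the largest in size among the 6 members. ERN2, which encodes the gut-type paralogue IRE1beta, had group means from 1.373 to 3.455 normalised reads and lay under the filter.

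ATF6, on chromosome 1 (161766294 to 161964070, plus strand, ENSG00000118217), encodes the sensor that is itself a transcription factor precursor. Vector cells at 24 h held 1601.6, 1697.1 and 1498.0 normalised reads in DMSO and 2160.4, 2216.7 and 2165.4 in Vps34-IN1. The drug-treated libraries lay close together and above all others, 1.364 times the DMSO mean. The log2 difference was 0.43 ± 0.07 (limma adjusted p = 1.403e-05). Methionase cells held 1552.7, 1404.6 and 1458.1 in DMSO and 1299.2, 1340.8 and 1567.8 with the drug, which overlapped and were not called apart (log2 -0.07, 95% interval -0.2 to 0.07). The responses differed by -0.50 ± 0.09 (adjusted p = 0.0004376). Under the drug methionase cells were lower than vector cells by a log2 difference of -0.61 ± 0.07 (adjusted p = 1.493e-07). In DMSO the methionase difference was -0.11 (95% interval -0.25 to 0.02) at 24 h and -0.07 (95% interval -0.21 to 0.06) at 12 h, and neither was called.

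XBP1, on chromosome 22 (28794555 to 28800597, minus strand, ENSG00000100219), was not called with methionase in DMSO and was higher with the drug in vector cells. Vector cells at 24 h held 4443.2, 4256.3 and 3823.0 normalised reads in DMSO and 7958.3, 8497.9 and 7783.5 in Vps34-IN1, without overlap. The ratio of means was 1.936 and the log2 difference 0.94 ± 0.14 (limma adjusted p = 8.183e-06). Methionase cells in DMSO held 4501.0, 4220.2 and 4303.1, inside and just above the range of the vector cells, a log2 difference of 0.06 (95% interval -0.23 to 0.34). At 12 h vector cells held 3805.5, 3393.3 and 3046.1 and methionase cells 3438.2, 3478.4 and 3337.1, which overlapped.

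Methionase cells under Vps34-IN1 spread widely for XBP1, at 3088.9, 5229.0 and 6098.6 normalised reads, a coefficient of variation of 32.23%. Replicate 1 lay below all libraries of the methionase cells in DMSO, and replicates 2 and 3 lay above them. With all 3, the drug response in methionase cells was 0.09 ± 0.14 on the log2 scale and was not called (adjusted p = 0.7514). Without replicate 1 it was 0.37 ± 0.08 and was called (limma adjusted p = 0.006009). The difference between both drug responses, -0.85 ± 0.19 (adjusted p = 0.002741), was still called without that library, at -0.57. Under the drug every vector library lay above every methionase library, with a log2 difference of -0.79 ± 0.14 (adjusted p = 7.436e-05), and of -0.51 without methionase replicate 1 (adjusted p = 5.316e-05).

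The table gives 1 value per gene, so the spliced and unspliced forms of XBP1 mRNA, and with them the activity of IRE1alpha, cannot be told apart. The stretch that distinguishes them is shown because it marks what these values leave out. It is 26 bases long in the GENCODE v29 transcripts of XBP1, 3 of which hold it and 2 of which lack it but match on both sides of it. The first placement that matched is shown and shifted ones were not examined, so its ends are not given as cut sites of IRE1alpha.
XBP1 stretch: gcagcactcagactacgtgcacctct

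**Figure D2:**
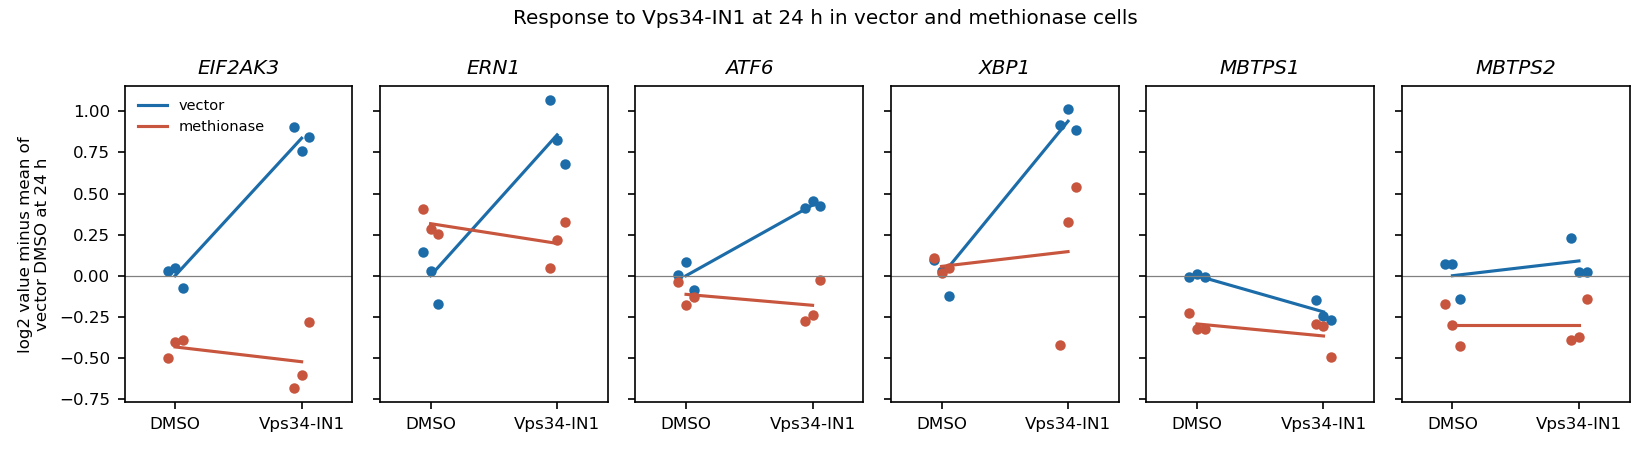
Log2 value of each library at 24 h minus the mean of vector cells in DMSO (linear axis) for the 6 members above the filter. Points are libraries and lines join group means of vector cells (blue) and methionase cells (red) in DMSO and in Vps34-IN1. The blue lines climb for EIF2AK3, ERN1, ATF6 and XBP1 (log2 0.83, 0.86, 0.43 and 0.94) and the red lines stay near level.

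ATF6B, on chromosome 6 (32115264 to 32128253, minus strand, ENSG00000213676), was listed at or near 0 throughout. It had 7 reads over all 18 libraries, in 5 of them, and at most 2 in any. For libraries with 0 reads, the limit that 0 reads allow, a count of 3, would be 2.731 to 3.362 normalised reads. That limit does not apply to the 5 libraries that had a read. No fold is given for it, and without any filter limma called it in no comparison (adjusted p from 0.2123 to 1). Genes beside it were also low. Within 500 kb on either side there are 63 protein-coding genes in GENCODE v29. Matched by name or synonym, 36 of them had a value and 16 (25.4%) were tested. Over the genome 13646 of 19889 (68.61%) were tested. The median of those with a value was 3.257 normalised reads around ATF6B and 313.4 over the genome.

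Genes that every cell uses were among those near 0 in this region. CSNK2B, which encodes the regulatory subunit of casein kinase 2, had a mean of 1.884 normalised reads, LSM2, an RNA-binding component of the spliceosome, 0.3753, and CLIC1 0.05166. Under the names C2 and CYP21A2 the values were 27940.0 and 922.4. Genes without a row of their own name were matched through synonyms, so these values may belong to genes elsewhere, which was not checked. With genes that every cell uses near 0, a value near 0 for ATF6B is given as listed, and not as absence of the transcript. The cause of the low values in this region was not tested. The windows around EIF2AK3 and MBTPS2 also had few tested genes (33.33% of 6 and 28.57% of 7), and that around XBP1 had 90.0% of 10.

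**Figure D3:**
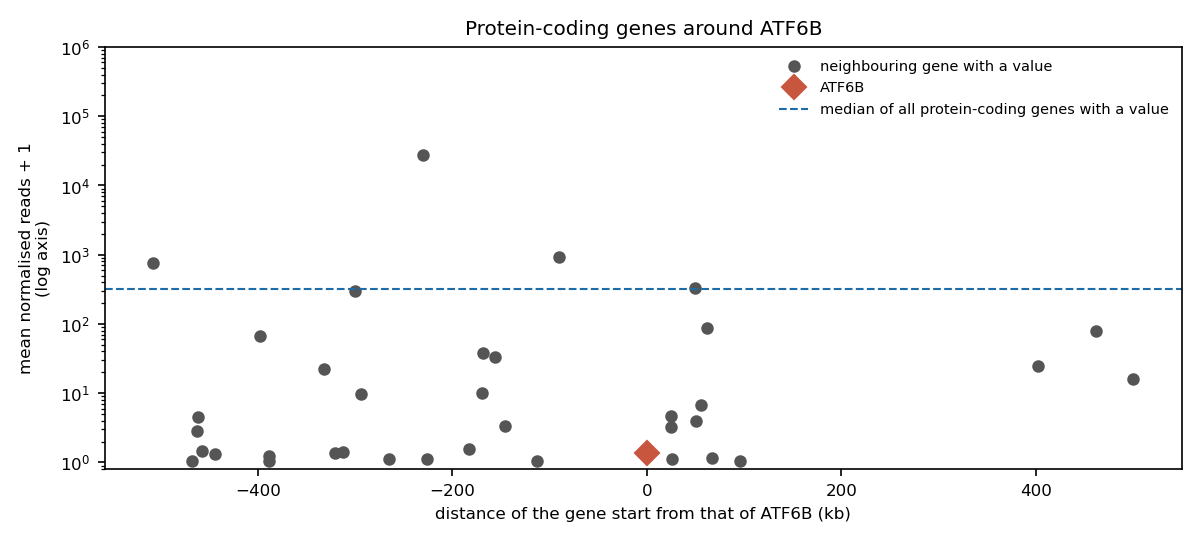
Mean normalised reads plus 1 over 18 libraries (log axis) of the 36 protein-coding genes with a value around ATF6B, against the distance of each gene's start from that of ATF6B in kb. Grey points are genes, the red diamond is ATF6B, and the dashed line is the median of all protein-coding genes with a value (313.4, plotted plus 1). Most points lie under the line. The point near the top is listed as C2, but genes were matched by name or synonym and its value may belong to another gene.

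The proteases that cut ATF6 were called lower where they were called at all. MBTPS1, on chromosome 16 (84053761 to 84116906, minus strand, ENSG00000140943), held 2748.8, 2792.6 and 2751.4 normalised reads in vector cells at 24 h in DMSO. Methionase cells held 2356.9, 2193.6 and 2193.2, all below them, and MBTPS1 fell by 0.29 ± 0.06 on the log2 scale (limma adjusted p = 0.000488). Vector cells under Vps34-IN1 held 2483.1, 2308.6 and 2284.6, also all below the DMSO libraries. This drop of 0.22 ± 0.06 (adjusted p = 0.004714) was in the opposite direction to the 4 members that rose. Methionase cells under the drug held 2235.2, 2225.1 and 1932.0. Their log2 difference of -0.14 ± 0.06 from vector cells was not called (adjusted p = 0.06126). Without methionase replicate 1 or 2 the adjusted p was 0.03983 or 0.03821, and without replicate 3 the difference was -0.08 (adjusted p = 0.3057). After quantile normalization it was -0.02 (adjusted p = 0.8194). At 12 h the groups overlapped at 2663.5, 2821.3 and 2751.0 against 2674.8, 2493.1 and 2545.6.

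MBTPS2, on chromosome X (21839636 to 21885424, plus strand, ENSG00000012174), was lower with methionase at 24 h in DMSO and in Vps34-IN1. In DMSO vector cells held 1458.6, 1451.6 and 1248.8 normalised reads and methionase cells 1220.2, 1105.8 and 1003.2, which did not overlap (log2 -0.30 ± 0.08, limma adjusted p = 0.004515). In Vps34-IN1 they held 1634.9, 1401.5 and 1405.6 and 1037.5, 1049.3 and 1248.4, again without overlap (log2 -0.39 ± 0.08, adjusted p = 0.0004934). With the drug it was called in neither arm, and the log2 differences were 0.09 (95% interval -0.08 to 0.26) in vector cells and 0.002 (95% interval -0.16 to 0.17) in methionase cells. At 12 h the values were 1445.2, 1325.2 and 1489.2 against 1466.5, 1419.8 and 1390.6. The gene YY2 lies within MBTPS2 on the same strand and had a mean of 90.08 normalised reads. The 2741 bases they share are of whole gene spans, and whether their exons overlap was not examined.

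**Figure D4:**
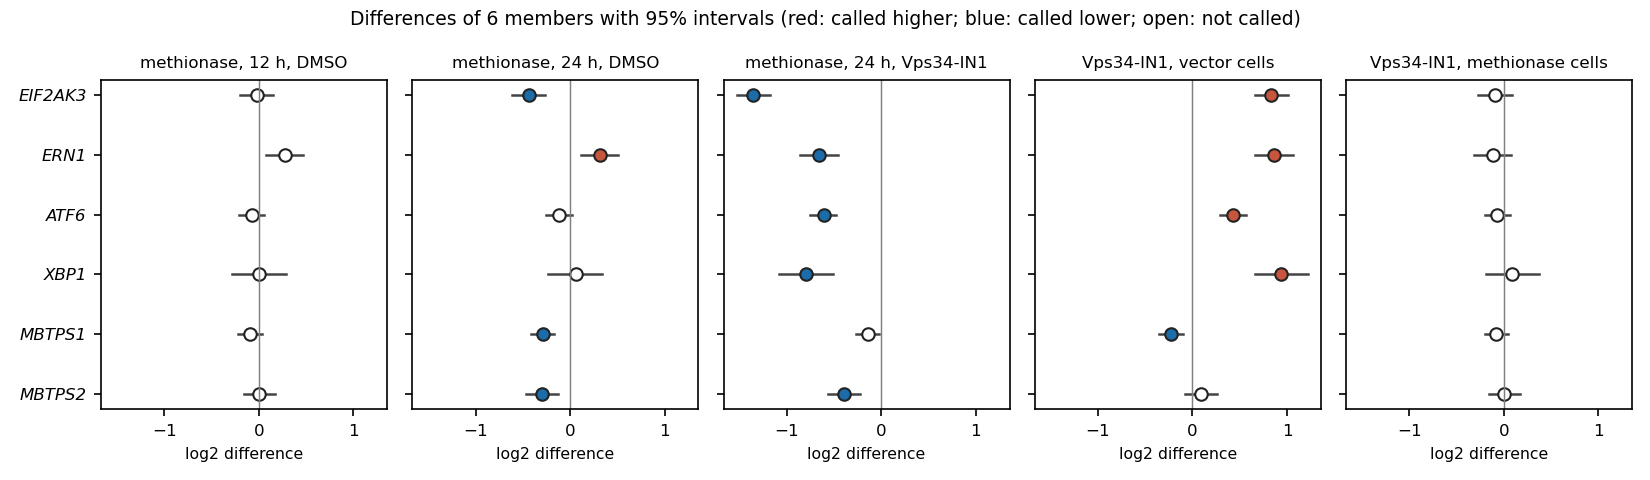
Log2 differences (x axis, deposited scale) of the 6 members above the filter in 5 comparisons, with 95% intervals. Red points were called higher, blue points lower and open points were not called. All points of the 12 h panel and of the Vps34-IN1 panel in methionase cells are open.

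Placed in order of their group means, EIF2AK3, ERN1, ATF6 and XBP1 all had vector cells under Vps34-IN1 as the highest group, and its libraries did not overlap with those of the next. For EIF2AK3 the order below was 339.9 in vector cells at 24 h, 304.6 and 298.3 in vector and methionase cells at 12 h, 231.6 in methionase cells at 24 h and 215.4 in methionase cells with the drug. The 3 middle groups overlapped with their neighbours, and a gap lay between 298.3 and 231.6. For ERN1 the 5 remaining groups, from 458.7 in vector cells at 12 h to 605.0 in methionase cells at 24 h, formed a chain of overlapping neighbours. The same held for ATF6, from 1403.0 in methionase cells with the drug to 1600.0 in vector cells at 12 h. For XBP1 the 12 h groups (3415.0 and 3418.0) overlapped with each other and lay below both DMSO groups at 24 h (4174.0 and 4341.0). Methionase cells with the drug had a mean of 4805.0 but ranged from 3088.9 to 6098.6, and so overlapped with all 4 of these groups. MBTPS1 had its highest mean, 2764.0, in vector cells at 24 h in DMSO, and a gap between the 3 highest groups and the rest. That gap was narrow, with the nearest libraries at 2493.1 and 2483.1. MBTPS2 had its gap between the methionase cells at 24 h (means 1110.0 and 1112.0) and the other 4 groups (means 1386.0 to 1481.0). Its nearest libraries were at 1248.4 and 1248.8, so these groups were barely apart.

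Levels between genes can be set side by side only per length. As mean normalised reads per kb of exon (union of GENCODE v29 exons), XBP1 stood at 1554.0, MBTPS1 at 241.2, ATF6 at 206.4, MBTPS2 at 148.1, EIF2AK3 at 63.13 and ERN1 at 54.97. XBP1 mRNA was thus the most abundant on this scale and the kinase sensors the least among the 6. EIF2AK3 and ERN1 changed rank between groups: per kb, EIF2AK3 stood at 123.0 and ERN1 at 85.07 in vector cells with the drug, and at 42.63 and 55.69 in methionase cells in DMSO at 24 h. The union holds the exons of every annotated transcript, so the order of genes with close values could depend on that choice of length.

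HSPA5 mRNA, a usual readout of these sensors, was several times higher in all 24 h groups that had methionase, the drug or both than in vector cells in DMSO. Vector cells at 24 h in DMSO held 10986.0, 11560.8 and 10255.3 normalised reads and methionase cells 79146.3, 67977.7 and 48214.8, a log2 difference of 2.54 ± 0.13 (limma adjusted p = 1.221e-12). With Vps34-IN1 vector cells held 51387.3, 43183.1 and 48614.3 (log2 2.12 ± 0.13 against DMSO, adjusted p = 1.326e-11) and methionase cells 68481.5, 92494.2 and 95947.7. HSPA5 was thus higher with methionase in both treatments, while EIF2AK3 was lower in both. Within methionase cells the HSPA5 mean with the drug was 1.315 times that in DMSO, and the groups overlapped. This response was not called in the main fit. It was called in some alternatives, among them a stricter filter (log2 0.409 ± 0.131, limma adjusted p = 0.0491). At 12 h HSPA5 was 8486.0 to 9619.7 in vector cells and 8588.2 to 8694.7 in methionase cells, which overlapped.

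The known effectors of each sensor are described from lists chosen with earlier results of these data known, so their counts are not independent evidence of a direction. Of 12 effectors of the PERK arm, all above the filter, 5 were called higher and 4 lower with Vps34-IN1 in vector cells (median log2 0.21). Of all tested genes 20.2% were higher and 19.9% lower in that comparison, with a median of 0. ATF3, a stress-induced transcription factor, rose by 3.69 ± 0.22, and ATF5, another target of the arm, fell by 0.63 ± 0.10. With methionase at 24 h in DMSO 4 were higher and 7 lower (median -0.5), beside 18.1% and 21.1% of all tested genes. ATF3 rose by 2.47 ± 0.22 and CHAC1, which degrades glutathione, fell by 2.01 ± 0.20. Under Vps34-IN1 7 of 12 were lower and 0 higher with methionase (median -0.59), beside 22.2% and 17.3% of all tested genes. SESN2, a stress-responsive regulator of mTORC1, had the lowest adjusted p of these (log2 -1.12 ± 0.14). In normalised reads the ratio of means was 0.4603 for SESN2 and 0.3804 for CHAC1. In methionase cells 3 of 12 were higher and 1 lower with the drug (median 0.17), beside 2.95% and 4.98% of all tested genes. The log2 difference was 0.486 ± 0.135 for PPP1R15A and -0.416 ± 0.087 for VLDLR. Without replicate 1 of methionase cells under the drug 6 were higher and 1 lower, and without replicate 2 these were 0 and 1. The difference between both drug responses was called higher for 2 of 12 and lower for 3 (median -0.13), where 9.92% and 11.9% of all tested genes were.

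Of 15 targets of the IRE1-XBP1 arm, 7 were called higher and 1 lower with Vps34-IN1 in vector cells (median 0.15). Of all tested genes 20.2% were higher and 19.9% lower there. SEC24D, a coat protein of vesicles leaving the endoplasmic reticulum, rose by 0.53 ± 0.07 and SPCS3, a signal peptidase subunit, fell by 0.42 ± 0.08. Under the drug 13 of 15 were lower with methionase and 0 higher (median -0.34), SEC24D by -0.88 ± 0.07. Of all tested genes 22.2% were lower and 17.3% higher in that comparison. In DMSO at 24 h 4 were higher and 3 lower with methionase (median 0.11), beside 18.1% and 21.1% of all tested genes. In methionase cells 1 was higher and 4 lower with the drug (median -0.11), and 0 and 3 when only the groups compared were fitted. In the main fit 2.95% of all tested genes were higher and 4.98% lower. The difference between both drug responses was called lower for 8 of 15 and higher for 0 (median -0.33), with SEC24D at -1.17 ± 0.10. It was lower for 11.9% of all tested genes and higher for 9.92%.

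Of 12 targets of the ATF6 arm, 11 were tested and DERL3 lay under the filter. With Vps34-IN1 in vector cells 8 were called higher and 0 lower (median 0.44), beside 20.2% and 19.9% of all tested genes. With methionase in DMSO at 24 h 7 were higher and 1 lower (median 0.45), beside 18.1% and 21.1% of all tested genes. The lower one was SEL1L, a partner of the ubiquitin ligase that removes misfolded proteins, at -0.60 ± 0.07. Under the drug 5 were lower and 1 higher with methionase (median -0.18), the higher one being HSPA5 at 0.83 ± 0.13. Without vector replicate 1 under the drug these counts were 2 and 1. With all libraries 22.2% of all tested genes were lower and 17.3% higher. The difference between both drug responses was lower for 8 of 11 and higher for 0 (median -0.52), beside 11.9% and 9.92% of all tested genes.

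**Figure D5:**
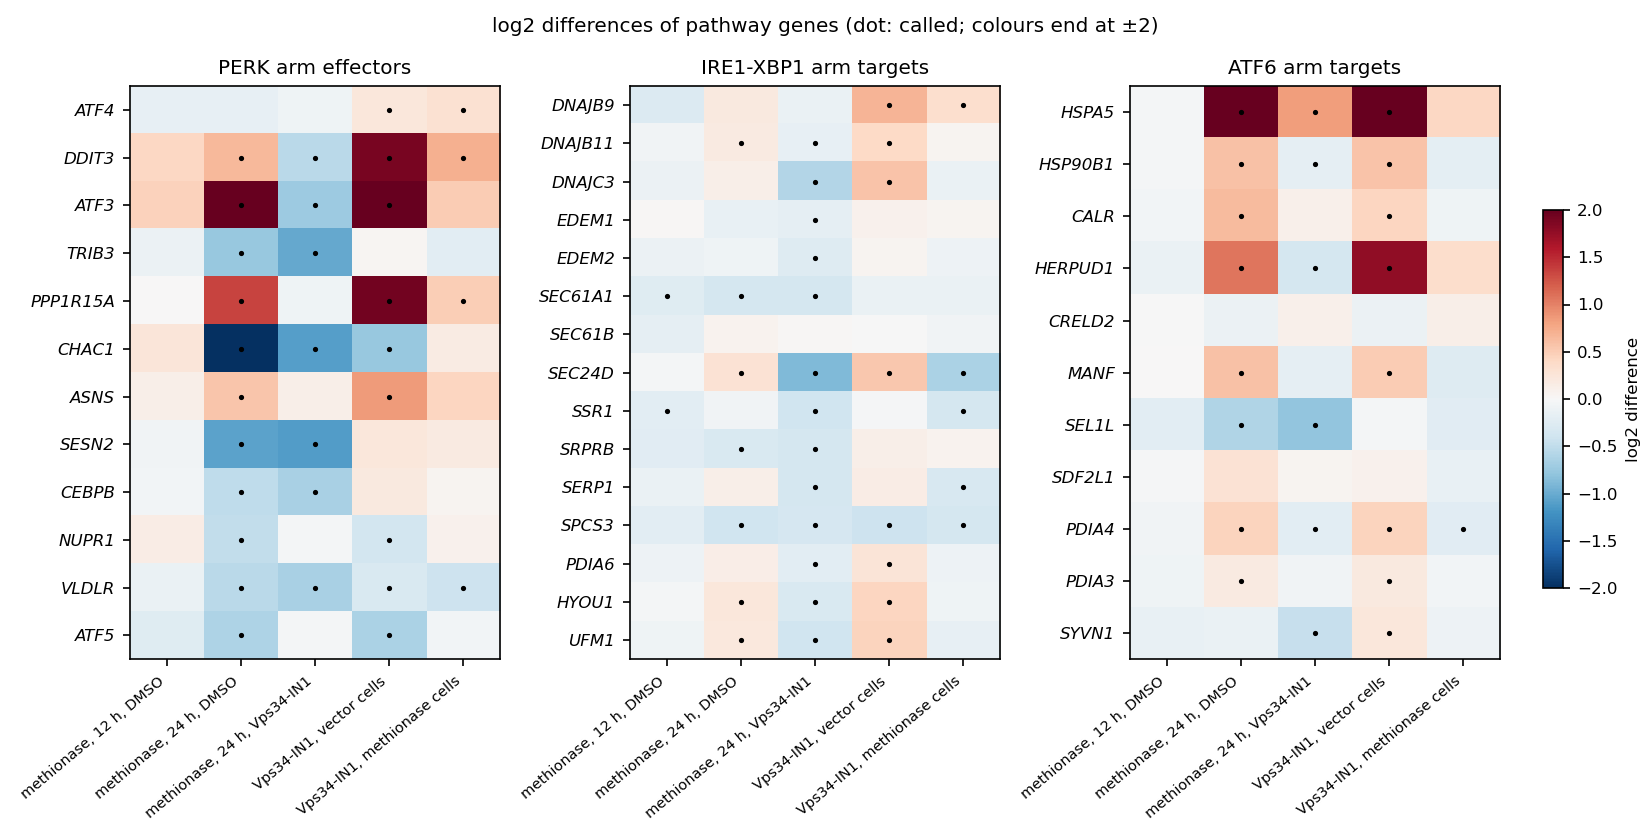
Log2 differences (colour, ending at ±2, deposited scale) of the tested effectors of the PERK, IRE1-XBP1 and ATF6 arms (rows) in 5 comparisons (columns), with a dot for each call. In the IRE1-XBP1 panel the column for methionase under Vps34-IN1 is blue for the 13 called genes, and in the ATF6 panel the columns for methionase in DMSO and for the drug in vector cells are mostly red.

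Among 17 partners and regulators of the sensors, 16 were tested and BFAR lay under the filter. With the drug in vector cells 5 of 16 were called higher and 4 lower (median 0.1), beside 20.2% and 19.9% of all tested genes. With methionase in DMSO at 24 h 4 were higher and 4 lower (median -0.06), beside 18.1% and 21.1%. MAP3K5, the kinase ASK1 that acts downstream of IRE1alpha, fell by 0.74 ± 0.08 with the drug and by 0.47 ± 0.08 with methionase. NCK1, an adaptor linked to eIF2alpha dephosphorylation, rose by 0.54 ± 0.08 with methionase. PPP1R15B, the constitutive regulatory subunit of the eIF2alpha phosphatase, rose by 0.75 ± 0.13 with the drug in vector cells.

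Of 12 other known substrates and cofactors of the site-1 and site-2 proteases, 11 were tested and CREB3L3 lay under the filter. With methionase in DMSO at 24 h 6 were lower and 1 higher (median -0.27), and under the drug 7 were lower and 0 higher (median -0.27). Of all tested genes 21.1% were lower and 18.1% higher in DMSO, and 22.2% and 17.3% under the drug. INSIG1, which retains the sterol sensor SCAP in the endoplasmic reticulum and is a target of the sterol-responsive factors, rose by 1.16 ± 0.10 with methionase in DMSO, while its relative INSIG2 fell by 0.77 ± 0.09. With the drug in vector cells 4 were higher and 5 lower (median -0.09), beside 20.2% and 19.9% of all tested genes. INSIG1 was again higher (1.16 ± 0.10) and INSIG2 lower (-0.45 ± 0.09). CREB3L2, a transcription factor released by the same proteases, was lower with methionase under the drug by -0.61 ± 0.06.

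The genes for the other kinases of eIF2alpha were also measured. EIF2AK1, the haem-regulated kinase, had group means from 4803.0 to 5630.0 normalised reads, EIF2AK2, the kinase PKR, from 1258.0 to 1512.0, and EIF2AK4, the amino acid sensor GCN2, from 1211.0 to 1491.0. With methionase in DMSO at 24 h 0 of the 3 were called (median -0.02), limma voom also called 0, and 0 had an unadjusted p under 0.05. Of all tested genes 39.2% were called in that comparison. Without methionase replicate 1 in DMSO 1 of the 3 was called. EIF2AK1 was called with Vps34-IN1 in vector cells at 0.14 ± 0.06 (adjusted p = 0.04838), a call that 8 of 13 alternatives ended, among them leaving out vector replicates 1 or 2 in DMSO or any replicate of vector cells with the drug. It was lower with methionase under the drug by -0.23 ± 0.06 (adjusted p = 0.003057), a call lost after quantile normalization (-0.13, adjusted p = 0.0577).

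Profiles across the 18 libraries were compared by Pearson's r over 15830 tested genes with a symbol that is not of clone type, as a description only, since libraries of a group share their treatment. The profiles most like that of EIF2AK3 were those of TBC1D9 (0.967), HERPUD2 (0.966) and SRF (0.956). For ATF6 they were SRF (0.967), EIF2AK3 (0.955) and FOXJ2 (0.951), so the 2 sensors ranked close to each other. For ERN1 they were BCL2L13 (0.965), WDR47 (0.945) and THBD (0.927), and for XBP1 IRF2BP2 (0.971), ITPRIP (0.97) and MAFG (0.965). For MBTPS1 they were EIF4A3 (0.964), CANT1 (0.964) and TFDP1 (0.961), and for MBTPS2 RAB3GAP2 (0.935), HOMER1 (0.928) and SEC62 (0.926). Among the members the pair EIF2AK3 and ATF6 had r = 0.96 over the libraries and 0.55 after group means were removed. ERN1 and XBP1 had 0.85 and 0.62, and XBP1 and MBTPS1 -0.45 and -0.49.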

How the data were processed

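The 18 HEK293T poly-A libraries were put into 6 groups by their labels, which all carry 1 batch value. The tools that the authors used include STAR 2.7.10b and featureCounts, with hg38 as the build, per the submitters' processing notes. The role of each tool, the annotation and the strand setting are not given in the sources used here. The authors deposited log2 values after a variance-stabilising transformation, from 5.45 to 18.81 log2. Of 37097 rows, 1 names no gene (at most 0.00216% of a library's reads) and was left out. Undoing the transformation gave whole reads for 100.0% of values, within 0.01 of a whole read. Normalised reads are these counts over the size factors. No library pair of a group matched within sampling noise, the lowest chi-square per gene being 2.71.

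Tests on the log2 values used limma 3.58.1 under R 4.3.3 (1 mean per group over all libraries, variance trend, two-sided). Genes whose mean was at least 0.5 above the lowest value were tested, 17755 in all. p-values were adjusted by Benjamini-Hochberg over all tested genes of each comparison, and called below 0.05. The fit was tested on simulated data. The alternatives were no filter, a filter of 1 (14322 genes), quantile normalization, equal library medians, only the groups compared, a replicate block, limma voom with TMM on recovered reads, and leaving out each library. Named were all members, HSPA5 and the 3 genes most like each member. From each pathway list the gene with the lowest adjusted p in each direction was picked per comparison, and only some of these are named. Members and lists were chosen with earlier results of these data known. Gene positions are from GENCODE v29 (GRCh38), and promoters from RefSeq, in which all 7 members matched by symbol.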

Additional observations from a re-analysis of the deposited data

Results flagged for a closer look

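Among the members, 4 responded to Vps34-IN1 differently in vector and methionase cells at 24 h by the test of the difference itself. In limma the methionase response minus the vector response was -0.922 ± 0.122 (SE, log2) for EIF2AK3, -0.978 ± 0.134 for ERN1, -0.499 ± 0.093 for ATF6 and -0.851 ± 0.194 for XBP1, with adjusted p from 9.95e-06 to 0.002741. All 4 rest on the same 3 libraries of vector cells under the drug, in which each gene had its highest group mean. The XBP1 value was -0.57 without replicate 1 of methionase cells under the drug. For EIF2AK3 the methionase difference in DMSO also differed between 24 h and 12 h, by -0.411 ± 0.122 (adjusted p = 0.02902), a call lost under 9 of 19 alternatives.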

How the results depend on the processing

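Of 696 recomputed values for 48 member results, 675 kept their side of the threshold, 10 lost the call and 11 gained it. A called difference changed direction in 0 of them. Values that were not called could change sign, as for ATF6 between 12 h and 24 h in vector cells (log2 -0.045 to 0.047). The number of members whose methionase difference depended on time was 1 as reported, 0 with no filter and 0 with equal library medians, and 2 when only the groups compared were fitted, with 0 to 2 when single libraries were left out. Fitting only the groups compared also called 1 member, ERN1, with methionase at 12 h and 1, XBP1, between 12 h and 24 h in vector cells. The response to the drug in methionase cells ranged from 0 to 1 members over the libraries left out. Among all genes, calls at 12 h were 385, but 178 with no filter, 185 after quantile normalization, 1561 with only the groups compared and 18 to 238 without single libraries. The drug response in methionase cells gave 1408 calls, 296 with only the groups compared and 860 to 1526 without single libraries. Calls between 12 h and 24 h were 2039, and 1290 with no filter, 3507 with only the groups compared and 798 to 1696 without single libraries. The methionase-by-time count was 2071, and 1276 to 2413 without single libraries. With equal library medians the share of calls that were higher went from 50.5% to 61.6% for the drug in vector cells, from 37.1% to 59.8% for the drug in methionase cells, from 40.1% to 27.7% for 24 h against 12 h and from 45.7% to 66.5% for methionase by time. It also went from 46.2% to 55.8% for methionase in DMSO at 24 h and from 43.9% to 52.2% for methionase under the drug. For the difference between drug responses it was 45.4%, and 50.7% after quantile normalization. At 12 h it was 31.4%, and 48.6% after quantile normalization. Replicate numbers did not pair the samples (r from -0.31 to 0.35 over 45 same-numbered pairs of libraries, 6 of 18 libraries closest to their own number), and the fit with a replicate block changed 0 member calls, with 4 members called for methionase in DMSO at 24 h. The block also left EIF2AK1 uncalled with the drug in vector cells (adjusted p = 0.06106). At the reads listed for ATF6B a change was not detectable. With 3 libraries a group, small differences could be missed.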
